A study of Macaca mulatta with 49 samples.

Results

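The genes described here are those of glycolysis, of glucose and lactate transport and of their closest control, measured in CD8 and CD4 central memory T cells (TCM) of rhesus macaques. The list held 34 genes. A listed gene was kept where one of its probes was detected, at a detection p-value below 0.05, in 6 or more of 24 samples in CD8 or in CD4 TCM. Where a gene had more than 1 probe, the one brightest on average stood for it. This left 25 of the 34 genes, out of 9355 genes that the same rule kept over the whole array. Of the other 9 genes, 7 had a probe that was detected too rarely (PFKFB2, PFKFB4, PKM, SLC16A7, PDK4, BPGM and PGM2) and 2 had no probe of their symbol in the annotation used (SLC16A1 and SLC16A3). HK3 lay just inside the rule, with detection in 6 of 24 CD8 samples and 0 of 24 CD4 samples, and PKM just outside it, with its best probe detected in 5 of 24 CD4 samples. None of the 3 listed monocarboxylate transporters, which carry lactate across the cell membrane, therefore gave a value, and neither did pyruvate kinase.

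Glucose enters a T cell through facilitative transporters of the SLC2A family and is phosphorylated by hexokinase, which holds it in the cell. Glycolysis then splits the sugar and oxidises it to pyruvate, which lactate dehydrogenase turns into lactate or which enters the mitochondrion through pyruvate dehydrogenase, an enzyme that the PDK kinases switch off. Activated effector T cells are known for high glycolytic flux, resting memory T cells for less, and HIF-1, a transcription factor stabilised by low oxygen and by antigen receptor signals, raises the transcription of many genes of the pathway. IL-15 is a cytokine on which memory CD8 T cells and NK cells depend for survival and division.

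Blood was taken from 12 rhesus macaques, of which 6 received an antibody against IL-15 and 6 a control antibody of the IgG1 class. From the mononuclear cells of each animal, both kinds of TCM were sorted after and before treatment, which gave 8 groups of 6 samples (CD8 and CD4 TCM after anti-IL-15, before anti-IL-15, after IgG1 and before IgG1). The labels name no genotype, and give neither the age of the animals, nor the dose, nor the time between treatment and the second sample. Animals are numbered 1 to 6 within each antibody, and the same number stands for the same animal in CD8 and CD4 TCM and at both time points.

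Each level below is the log2 of a probe's background-corrected and normalised bead intensity on a human expression array, so a difference of 1 is a doubling. The probes were designed on human sequence, and a dim probe in macaque RNA does not show that a gene was silent. A probe's level is set only against the same probe in other samples. Each change is given with its moderated standard error (SE) from limma, the adjusted p-value is the Benjamini-Hochberg value over all genes tested in that comparison, and a gene is called where it lies below 0.05.

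The arrays were of similar brightness, with median intensities of 88 to 103 for CD8 and 96 to 108 for CD4 samples. CD3D, CD3G, IL7R and CCR7, which mark T cells and their central memory state, were detected in all 24 samples of both cell types. CD8B, the beta chain of the CD8 coreceptor, was detected in 20 of 24 CD8 samples and 0 of 24 CD4 samples, and CD8A in 24 of 24 CD8 samples and 19 of 24 CD4 samples. The CD4 probe was detected in 0 of 24 CD8 samples and 1 of 24 CD4 samples, so the CD4 label was not shown by its own gene. The sorts yielded 23000 to 116000 CD8 cells and 197000 to 958000 CD4 cells. These ranges do not overlap, so cell number and cell type cannot be told apart. The CD8 sample of animal 4 after anti-IL-15 and both CD4 samples of animal 3 of the anti-IL-15 animals stood somewhat apart from the others of their cell type, and values without those animals are given below for the members whose changes moved most.

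In CD8 TCM, 1 of the 25 members was called after anti-IL-15, against 0.174% of all 8626 genes tested (15 genes), and it rose. The member was SLC2A3, which encodes the high-affinity glucose transporter GLUT3. Its level was 8.15, 8.39, 8.30, 8.65, 8.86 and 8.52 in animals 1 to 6 after anti-IL-15, against 6.96, 6.68, 7.79, 7.22, 7.94 and 8.09 in the same animals before. Every sample after treatment lay above every sample before it, a separation that 0.348% of all genes showed in this comparison. The rise was 1.03 ± 0.17 (SE, 6 animals; 95% interval 0.67 to 1.39), or 2.04-fold, with a limma adjusted p of 0.0247. Single animals rose by 0.43 to 1.70. The spread between animals was smaller after treatment (SD 0.25, n = 6) than before (SD 0.57, n = 6). In bulk samples, a change in how many cells of a kind were sorted and a change in RNA per cell cannot be told apart. The call was lost when anti-IL-15 animal 1, 2, 4 or 5 was left out, with changes of 0.90 to 1.05 and adjusted p of 0.0635 to 0.0921, and in a fit without the animal as a replicate block (adjusted p 0.594).

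**Figure D1:**
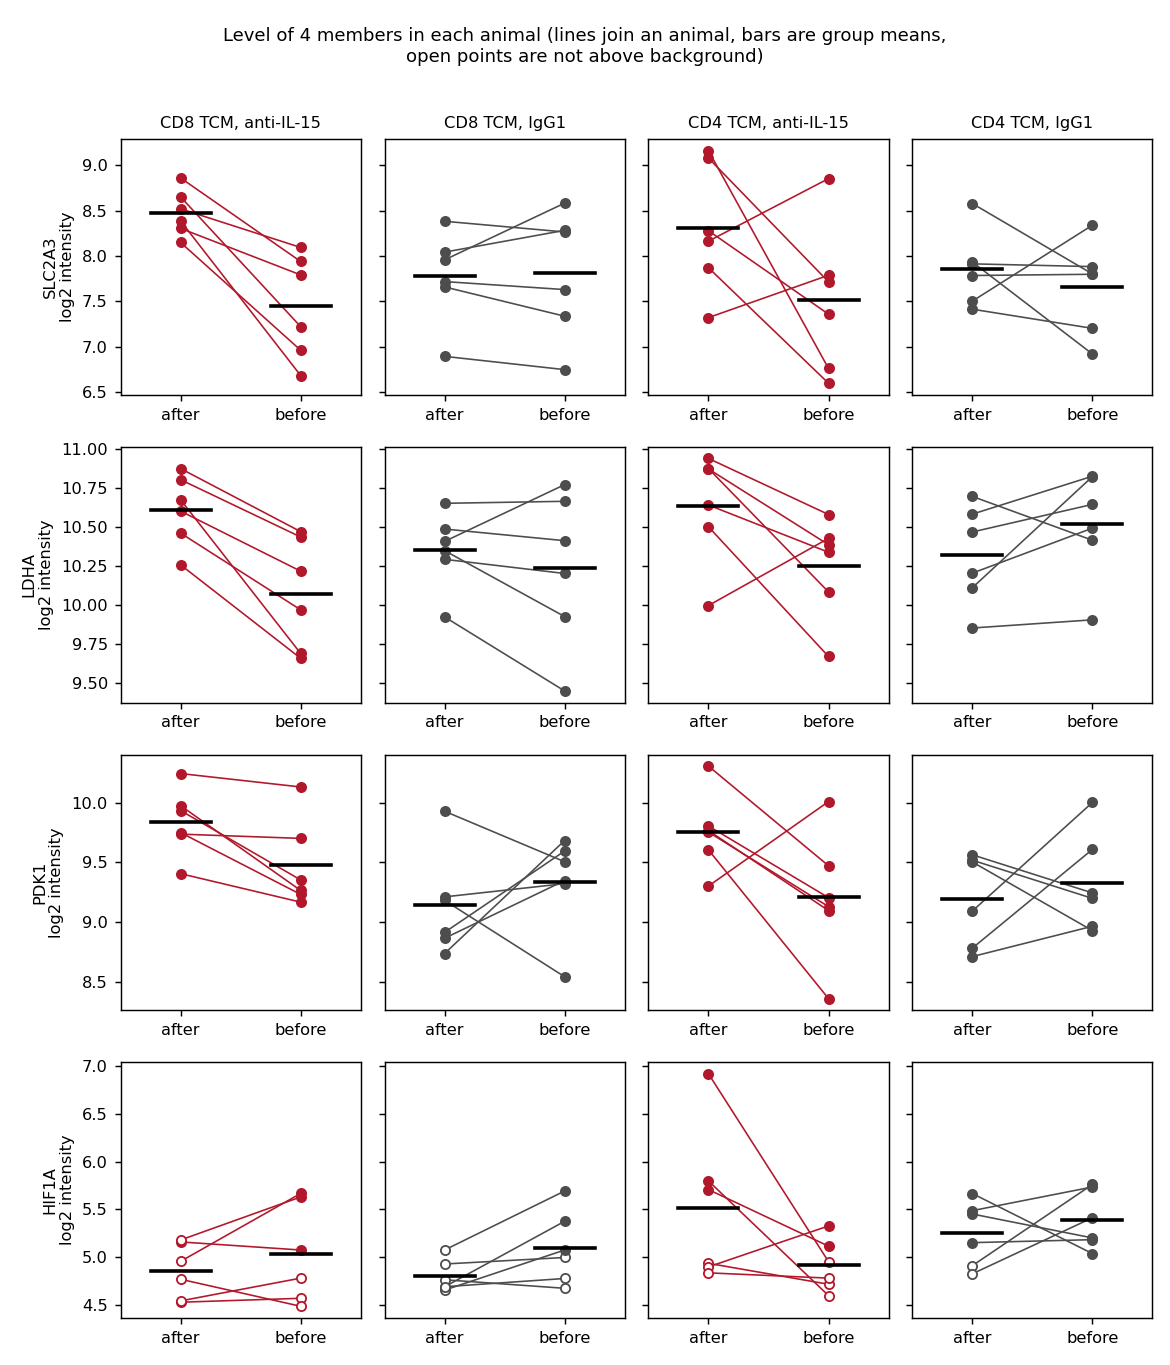
Levels (log2 normalised intensity) of SLC2A3, LDHA, PDK1 and HIF1A in each animal after treatment (left) and before (right), joined by a line, for CD8 and CD4 TCM and for anti-IL-15 and IgG1; open points mark probes not above background and bars the group means (n = 6 each). SLC2A3 in CD8 TCM lies between 8.15 and 8.86 after anti-IL-15, above all 6 values before it (6.68 to 8.09), and the lines of the IgG1 animals run both ways.

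After IgG1, the level of SLC2A3 in CD8 TCM was 7.66, 7.96, 7.72, 8.38, 8.04 and 6.89 in animals 1 to 6, against 7.34, 8.58, 7.63, 8.26, 8.28 and 6.75 before. The groups overlapped, and 4 of 6 animals were higher after the control antibody. The fitted change was -0.03 ± 0.17. The anti-IL-15 change minus the IgG1 change came to 1.06 ± 0.24 (95% interval 0.56 to 1.56, unadjusted p 0.000346), but no gene of the array passed that test, and its adjusted p was 0.606. A rise particular to the anti-IL-15 animals was thus not called. SLC2A14, a close copy of SLC2A3 whose transcripts a SLC2A3 probe could also bind, was detected too rarely in CD8 TCM to be tested there.

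SLC2A1, which encodes GLUT1, the other glucose transporter with a value, did not follow SLC2A3 in CD8 TCM. Its level ran from 5.52 to 6.98 over the 24 CD8 samples. The change was -0.00 ± 0.14 after anti-IL-15, with 3 of 6 animals higher, and -0.15 ± 0.14 after IgG1.

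Of the genes at the far end of the pathway, LDHA, the lactate dehydrogenase subunit that favours the making of lactate, came nearest to a call. Its level had a lowest, median and highest value of 10.26, 10.64 and 10.87 in CD8 TCM after anti-IL-15, against 9.66, 10.09 and 10.47 before. All 6 animals were higher, by 0.37 to 0.98, although the ranges of the groups overlapped. The change of 0.54 ± 0.13 had an adjusted p of 0.139. It passed the threshold (adjusted p 0.0374 to 0.0490) in the deposited normalised table, with a different background correction, with no background correction and with a variance trend. A dimmer LDHA probe, detected in 22 of 24 CD8 samples, gave -0.12 ± 0.15, so the 2 probes of the gene disagreed. After IgG1 the LDHA change was 0.11 ± 0.13, and the difference between the antibodies was 0.42 ± 0.19 (unadjusted p 0.0362, adjusted p 0.642), against -0.36 ± 0.21 by the dimmer probe. LDHB, the subunit that favours the use of lactate, changed by 0.12 ± 0.15 after anti-IL-15.

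PDK1, a kinase that holds pyruvate back from the mitochondrion by inactivating pyruvate dehydrogenase, was also higher in 6 of 6 animals after anti-IL-15, by 0.04 to 0.71. Its level was 9.41 at the lowest, 9.84 at the median and 10.25 at the highest in CD8 TCM after anti-IL-15, against 9.17, 9.31 and 10.13 before. The change of 0.37 ± 0.18 had an adjusted p of 0.547. After IgG1 it was -0.19 ± 0.18, and the antibodies differed by 0.56 ± 0.26 (unadjusted p 0.044, adjusted p 0.642). PDK3, a second kinase of this family, changed by 0.17 ± 0.15 after anti-IL-15 and -0.22 ± 0.15 after IgG1, while its dimmer probe gave -0.16 ± 0.24 and -0.25 ± 0.24. Altogether 4 of the 25 members were higher in all 6 animals after anti-IL-15 (SLC2A3, LDHA, HK3 and PDK1), against 2.13% of all genes, and no member was lower in all 6, against 2.96%. In animals 1, 2 and 4 HK3 was detected neither before nor after treatment, so its rises there were differences between background readings. HK3 had just the 6 detections needed to be kept, 3 of them in CD8 samples after anti-IL-15. A rise in that group was thus favoured by how HK3 was kept.

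Among the hexokinases, HK1, the isoform most cells use, changed by 0.02 ± 0.13 in CD8 TCM after anti-IL-15. HK2, the isoform that rises in activated T cells, had a lowest, median and highest level of 4.61, 4.94 and 5.96 after anti-IL-15, against 4.92, 5.20 and 5.86 before. It was detected in 1 of 6 samples after anti-IL-15 and 5 of 6 before, and 4 of 6 animals were lower. Animals 1 and 3 were higher, by 0.12 and 0.74, and the change was -0.24 ± 0.19 (-0.06 without animal 4). After IgG1, HK2 was higher in 5 of 6 animals (0.34 ± 0.19), with 5.33, 5.66 and 5.90 after, against 5.03, 5.25 and 5.78 before. The antibodies differed by -0.58 ± 0.27 (unadjusted p 0.0442, adjusted p 0.642).

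HK3, a hexokinase known from myeloid cells, was detected in 3 of 6 CD8 samples after anti-IL-15 and 1 of 6 before. Its level was 4.77, 4.55, 5.16, 4.64, 7.35 and 8.09 in animals 1 to 6 after anti-IL-15, against 4.51, 4.45, 4.56, 4.37, 7.09 and 4.92 before. The change of 0.78 ± 0.29 (adjusted p 0.418) rested on animal 6, which rose by 3.17 where the others rose by 0.11 to 0.60, and was 0.30 without that animal. The samples with a high HK3 level also had high levels of monocyte genes, as given further on.

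In the upper part of glycolysis, the members with the lowest p in CD8 TCM were lower after anti-IL-15. PFKL, the liver-type subunit of phosphofructokinase, which commits the sugar to glycolysis, had a lowest, median and highest level of 5.13, 5.48 and 6.13 after anti-IL-15, against 5.66, 5.97 and 6.67 before. Its change was -0.52 ± 0.22, with 5 of 6 animals lower (adjusted p 0.479), but a dimmer PFKL probe, detected in 7 of 24 CD8 samples, gave 0.08 ± 0.15. Between the antibodies the PFKL probes also had opposite signs, at -0.49 and, for the dimmer one, 0.53. ALDOC, an aldolase isoform best known from brain, reached 6.82, 7.49 and 8.08 after, against 7.30, 7.80 and 8.20 before. It changed by -0.33 ± 0.14, with 5 of 6 animals lower (adjusted p 0.48). TPI1, the triosephosphate isomerase, moved the other way (8.16, 8.45 and 8.97 after, against 7.79, 8.08 and 8.65 before), by 0.30 ± 0.15 (adjusted p 0.538). The TPI1 change in animal 4, whose sample after treatment stood apart, was 1.19, and the fitted change was 0.12 without that animal.

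The other members in CD8 TCM changed by between -0.32 (ENO3) and 0.24 (PFKFB3) after anti-IL-15, none with an unadjusted p below 0.05. The ENO3 value rested on animal 4 and was 0.03 without it, the opposite sign. Without that animal ENO2 changed by -0.10, against -0.27 over all 6 animals, PFKFB3 by 0.38 and PFKM by 0.10, against -0.09. In all, the sign of 6 of the 25 changes turned, none of them a called one. The members in this range were GPI, PFKM, PFKP, PFKFB3, ALDOA, GAPDH, PGK1, PGAM1, the 3 enolases, PGM1 and HIF1A, beside those already given. GAPDH, the enzyme that oxidises glyceraldehyde phosphate, changed by 0.06 ± 0.16. PGK1, the next enzyme, changed by 0.05 ± 0.12, and ENO1, the main enolase, by 0.08 ± 0.13. HIF1A, which encodes the regulated subunit of HIF-1, was near background in CD8 TCM, with detection in 7 of 24 samples, and changed by -0.18 ± 0.15. The median change of the 25 members was 0.05 and 15 of them were above 0, beside a median of -0.02 over all genes. At an unadjusted p below 0.05, 5 members were counted (SLC2A3, LDHA and HK3 higher, PFKL and ALDOC lower), which is 20% of the members, against 9.44% of all genes (4.45% higher and 4.98% lower). HK3 was kept partly through its detection after anti-IL-15 (3 of 6 samples), so its place in this count was favoured by the rule.

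**Figure D2:**
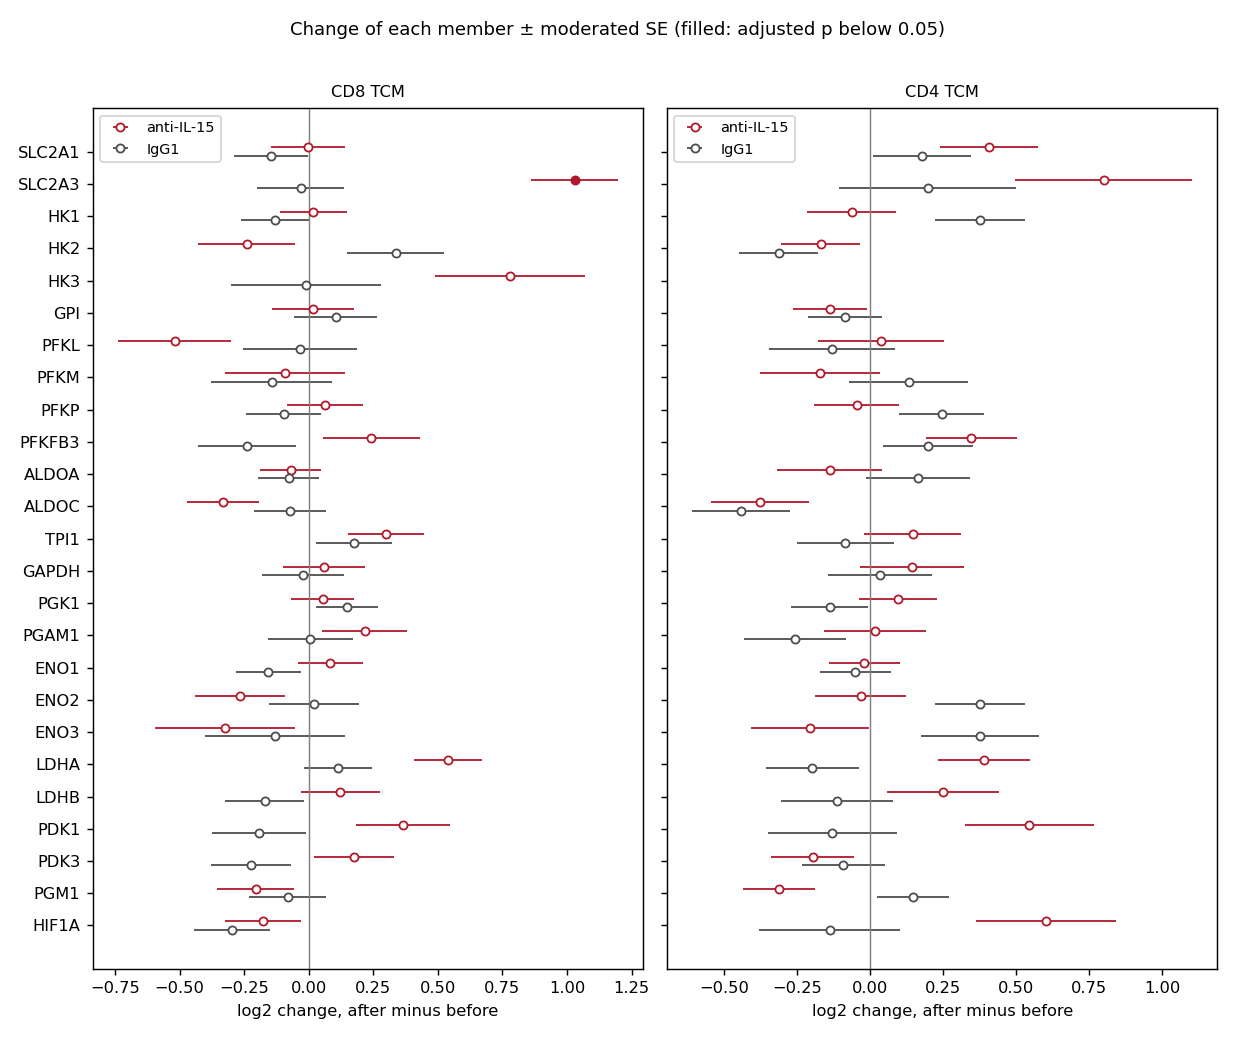
Change of each member (log2, after minus before) with its moderated SE in CD8 TCM (left, 25 members) and CD4 TCM (right, 24 members) for anti-IL-15 and IgG1; filled points have an adjusted p below 0.05. SLC2A3 after anti-IL-15 in CD8 TCM is the one filled point, at 1.03.

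After the control antibody, 0 of the 25 members were called in CD8 TCM, and 0% of all genes. At an unadjusted p below 0.05 the counts were 0 members and 7.11% of all genes. The lowest p among the members was that of HIF1A, with a lowest, median and highest level of 4.65, 4.73 and 5.07 after IgG1, against 4.67, 5.03 and 5.69 before, and a change of -0.30 ± 0.15. PDK3 followed HK2 in order of p, with 5.96, 6.53 and 7.02 after, against 6.54, 6.75 and 6.94 before. Next came PFKFB3 (7.78, 8.17 and 8.92 after, against 8.00, 8.44 and 8.83 before), ENO1 (10.29, 11.54 and 12.43 after, against 10.34, 11.53 and 12.69 before) and PGK1 (10.26, 10.65 and 10.73 after, against 10.33, 10.42 and 10.52 before). All of these ranges overlapped. TPI1 was higher in 6 of 6 animals after IgG1, against 1.87% of all genes, by 0.00 to 0.34. The median change of the members was -0.08 and 7 of 25 were above 0, beside a median of -0.03 over all genes. Between the antibodies, 0 of 25 members and 0% of all genes were called in CD8 TCM. At an unadjusted p below 0.05 there were 4 members (SLC2A3, LDHA and PDK1 higher, HK2 lower), against 7.59% of all genes (4.36% higher and 3.23% lower). HK3 and PDK3 completed the 6 members with the lowest p, with differences of 0.79 ± 0.41 and 0.40 ± 0.22.

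In CD4 TCM, 0 of the 24 members tested were called after anti-IL-15, against 0.0336% of all 8923 genes (3 genes). At an unadjusted p below 0.05, 8 members were counted, 6 of them higher (SLC2A3, HIF1A, PDK1, LDHA, SLC2A1 and PFKFB3) and 2 lower (PGM1 and ALDOC). That is 33.3% of the members, against 5.69% of all genes (2.41% higher and 3.28% lower), and the lowest adjusted p among them was 0.769.

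SLC2A3 had the largest difference of these in CD4 TCM. Its level was 7.87, 8.28, 7.32, 9.16, 9.08 and 8.16 in animals 1 to 6 after anti-IL-15, against 6.60, 7.36, 7.79, 6.76, 7.71 and 8.85 before. In 4 of 6 animals it was higher, by 0.92 to 2.40, and in animals 3 and 6 it was lower, with changes of -0.47 and -0.69. The change was 0.80 ± 0.30 (adjusted p 0.769). It came to 1.05 without animal 3, whose samples stood apart, 1.10 without animal 6 and 0.48 without animal 4. The SLC2A3 change was 0.20 ± 0.30 after IgG1, with a difference between the antibodies of 0.60 (adjusted p 0.998). SLC2A14, its close copy, changed by 0.67 ± 0.26 (adjusted p 0.779) in CD4 TCM after anti-IL-15. The change of SLC2A3 in CD8 TCM minus that in CD4 TCM was 0.23 ± 0.37, so the cell types were not shown to differ. The comparisons of CD8 and CD4 TCM use the same animals.

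SLC2A1 was higher in 5 of 6 animals in CD4 TCM after anti-IL-15, with a lowest, median and highest level of 6.70, 7.02 and 7.26, against 6.00, 6.68 and 7.10 before. Its change was 0.41 ± 0.17 (adjusted p 0.818) after anti-IL-15 and 0.18 ± 0.17 after IgG1. The change in CD8 TCM minus that in CD4 TCM was -0.41 ± 0.22 (unadjusted p 0.0744).

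LDHA in CD4 TCM was higher in 5 of 6 animals, at 10.00, 10.75 and 10.94 after anti-IL-15, against 9.67, 10.36 and 10.58 before. The change was 0.39 ± 0.16 (adjusted p 0.801) after anti-IL-15 and -0.20 ± 0.16 after IgG1, where 5 of 6 animals were lower. The antibodies differed by 0.59 ± 0.22 (unadjusted p 0.017, adjusted p 0.998). The dimmer LDHA probe gave -0.14 ± 0.14 after anti-IL-15 and a difference between the antibodies of 0.01 ± 0.20. PDK1 showed the same order, at 9.30, 9.76 and 10.31 after anti-IL-15, against 8.36, 9.17 and 10.01 before. It was higher in 5 of 6 animals, and its change in animal 6 was -0.71. Its change was 0.54 ± 0.22 (adjusted p 0.791) after anti-IL-15 and -0.13 ± 0.22 after IgG1, with a difference between the antibodies of 0.67 ± 0.31. With the sorted cell count in the fit, the PDK1 change after anti-IL-15 was -0.068, the opposite sign.

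HIF1A had levels of 4.83, 5.32 and 6.92 (lowest, median and highest) in CD4 TCM after anti-IL-15, against 4.60, 4.87 and 5.33 before. It was detected in 3 of 6 samples after and 2 of 6 before, so most of these values lay near background. The change of 0.60 ± 0.24 (adjusted p 0.783) held an increase of 1.97 in animal 3, and was 0.33 without that animal. Its IgG1 change was -0.14 ± 0.24, and the difference between the antibodies 0.74 ± 0.34 (0.47 without animal 3). PFKFB3, which makes the activator of phosphofructokinase, was higher in 6 of 6 animals, against 1.04% of all genes. It changed by 0.35 ± 0.16 (adjusted p 0.841), while its dimmer probe gave 0.01 ± 0.16, and the change was 0.23 without animal 3.

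PGM1, phosphoglucomutase, which links glycogen to glycolysis, was lower in CD4 TCM in 6 of 6 animals after anti-IL-15, against 1.33% of all genes, with changes from -0.63 to -0.00. Its level was 6.76, 7.20 and 7.42 after, against 6.93, 7.55 and 7.93 before. The change was -0.31 ± 0.12 (adjusted p 0.776) after anti-IL-15 and 0.15 ± 0.12 after IgG1, and the antibodies differed by -0.46 ± 0.17 (unadjusted p 0.0165). ALDOC changed by -0.38 ± 0.17 in CD4 TCM after anti-IL-15 and by -0.44 ± 0.17 after IgG1, with 5 of 6 animals lower in each. Over the 24 members the median change was -0.00, with 12 above 0, beside -0.03 over all genes. Without animal 3 the sign of 5 of the 24 changes turned, among them LDHB (-0.04, against 0.25 over all 6 animals) and ENO3 (0.05, against -0.21).

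**Figure D3:**
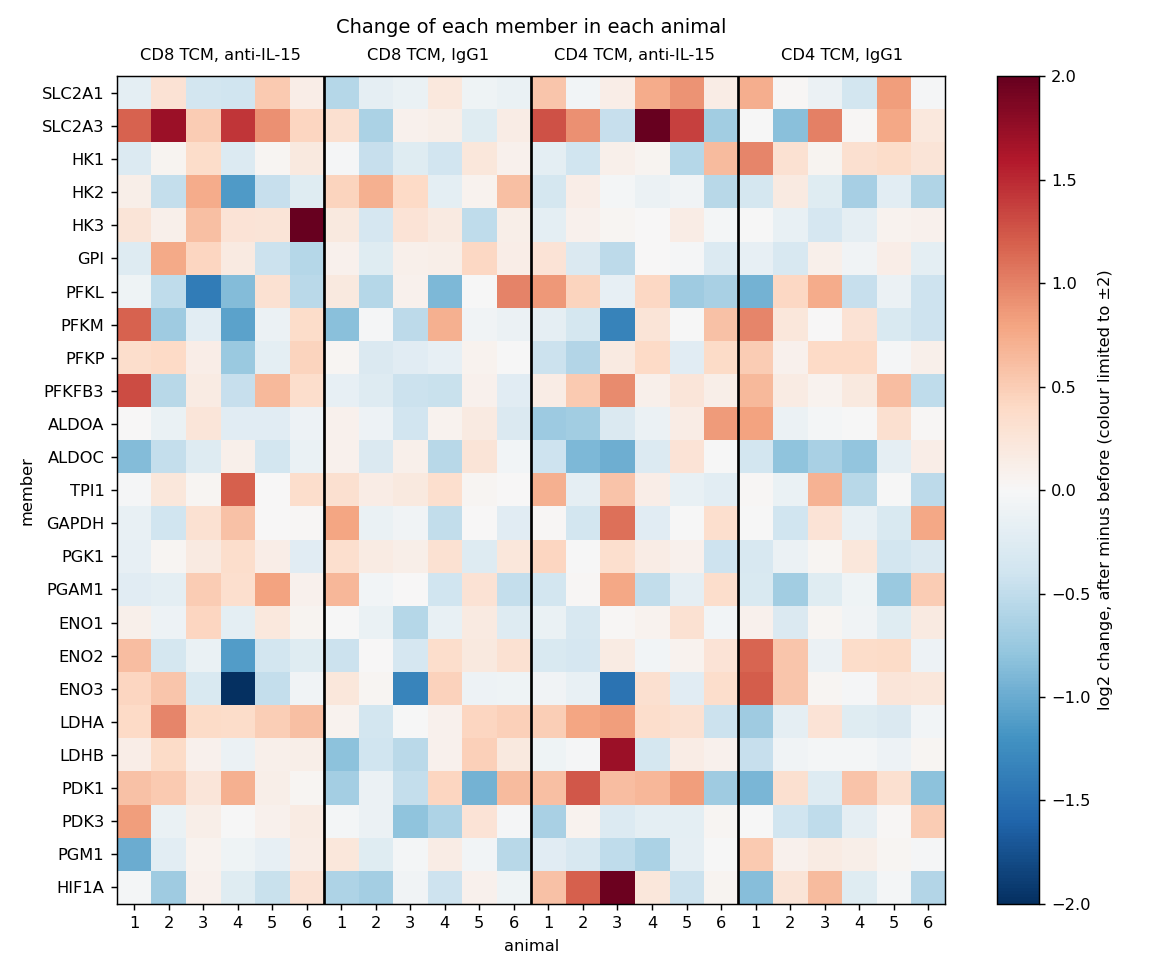
Change of each member in each of the 24 pairs of samples (log2, after minus before; rows are members, columns are animals by cell type and antibody; colours are limited to 2 either way). The SLC2A3 row is above 0 in all 6 CD8 anti-IL-15 columns and in 4 of the 6 CD4 anti-IL-15 columns, and HK3 in CD8 TCM is dominated by animal 6 of the anti-IL-15 animals.

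After IgG1, 0 of 24 members and 0% of all genes were called in CD4 TCM. At an unadjusted p below 0.05, 4 members were counted, against 3.5% of all genes. HK1 was higher in 6 of 6 animals, against 2.28% of all genes, at 10.28, 10.67 and 10.90 after IgG1, against 9.93, 10.21 and 10.58 before (0.38 ± 0.15, adjusted p 1). ENO2, the enolase of neurons, was at 9.61, 11.13 and 12.06 after, against 9.05, 10.86 and 11.25 before (0.38 ± 0.15), and HK2 at 4.79, 5.16 and 5.43 after, against 5.04, 5.41 and 5.78 before (-0.31 ± 0.13). A dimmer HK2 probe, detected in 7 of 24 CD4 samples, gave 0.07, the opposite sign. ALDOC stood at 6.83, 7.47 and 8.09 after, against 7.60, 8.07 and 8.21 before. Members with an unadjusted p below 0.05 were thus also found after the control antibody. ENO3, the muscle enolase, with 7.03, 7.69 and 7.89 after, against 6.67, 7.26 and 7.60 before, and PFKP, the platelet-type phosphofructokinase, with 5.47, 6.66 and 7.44 after, against 5.06, 6.57 and 7.27 before, completed the 6 with the lowest p. Between the antibodies, 0 of 24 members and 0% of all genes were called in CD4 TCM. Unadjusted, 4 members were counted (LDHA, HIF1A and PDK1 higher, PGM1 lower), against 3.82% of all genes (1.37% higher and 2.45% lower). ENO3 (-0.58 ± 0.28, and -0.33 without anti-IL-15 animal 3) and HK1 (-0.44 ± 0.22) followed.

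The change in CD8 TCM minus the change in CD4 TCM was called for 0 of 25 members and 0% of all genes after anti-IL-15. Unadjusted, 2 members were counted, against 3.62% of all genes, namely HIF1A (-0.78 ± 0.30) and HK3 (0.77 ± 0.32), which had been kept through CD8 detection alone. After IgG1 the counts were again 0 members and 0% of all genes, and HK2 (0.65 ± 0.23) and HK1 (-0.51 ± 0.20) were the 2 members counted unadjusted, against 4.36% of all genes. PDK3 (0.37 ± 0.21), PFKL (-0.56 ± 0.32) and ENO2 (-0.23 ± 0.24) were next after anti-IL-15, beside SLC2A1. PFKFB3 (-0.44 ± 0.25), ALDOC (0.37 ± 0.22), PGK1 (0.29 ± 0.17) and PFKP (-0.34 ± 0.21) were next after IgG1.

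Between the cell types before treatment, 5 of the 25 members were called, which is 20%, against 36.1% of all genes, so the members differed no more often than the array as a whole. A total of 4 members were lower in CD8 than in CD4 TCM, against 20.8% of all genes, and 1 was higher, against 15.3%. These comparisons pair the cell types within the 12 animals, and every call between them was lost when the sorted cell count entered the fit.

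GAPDH was lower in CD8 TCM in 12 of 12 animals before treatment, which held for 7.65% of all genes in one direction or the other. Its lowest, median and highest levels were 8.07, 9.04 and 10.41 in CD8 TCM, against 9.09, 9.59 and 10.62 in CD4 TCM. The ranges overlapped between animals, and the difference within animals was -0.59 ± 0.11 (1.51-fold lower in CD8 TCM, adjusted p 0.000293). Of its dimmer probes, one gave -0.49 ± 0.11 (adjusted p 0.00125) and the other -0.20 ± 0.10 (adjusted p 0.136). GAPDH was also called lower after anti-IL-15 (-0.79 ± 0.16, adjusted p 0.00176; 8.21, 9.08 and 9.95 in CD8 TCM, against 9.25, 9.79 and 10.38 in CD4 TCM) and after IgG1 (-0.53 ± 0.16, adjusted p 0.0165; 8.71, 8.89 and 10.35 in CD8 TCM, against 9.00, 9.60 and 10.89 in CD4 TCM). After anti-IL-15 the dimmer GAPDH probes gave -0.62 ± 0.14 (adjusted p 0.00414) and -0.32 ± 0.15 (adjusted p 0.131). After IgG1 neither passed, at -0.34 ± 0.14 (adjusted p 0.0731) and 0.16 ± 0.15 (adjusted p 0.440), the second of opposite sign. Without IgG1 animal 6 the difference after IgG1 came to -0.44 and was no longer called (adjusted p 0.0678).

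PGAM1, phosphoglycerate mutase, which acts after GAPDH and PGK1, was lower in CD8 TCM in 11 of 12 animals before treatment. It stood at 5.45, 6.95 and 7.61 in CD8 TCM, against 6.58, 7.68 and 8.15 in CD4 TCM, a difference of -0.74 ± 0.15 (adjusted p 0.000476). PGAM4, a near-identical copy, gave -0.47 ± 0.11 (adjusted p 0.00243), and the probes of the pair may share transcripts. PFKM, the muscle-type phosphofructokinase subunit, was lower in 10 of 12 animals, at 5.96, 6.88 and 7.37 in CD8 TCM, against 6.58, 7.30 and 8.06 in CD4 TCM (-0.45 ± 0.13, adjusted p 0.0118). All 6 anti-IL-15 animals were lower and 4 of the 6 IgG1 animals. ALDOC was lower by a smaller amount, at 7.17, 7.76 and 8.20 in CD8 TCM, against 7.60, 8.07 and 8.48 in CD4 TCM (-0.29 ± 0.09, adjusted p 0.0155). ENO3 alone was called higher, at 6.84, 7.80 and 8.29 in CD8 TCM, against 6.67, 7.36 and 8.29 in CD4 TCM (0.32 ± 0.12, adjusted p 0.0421), and its call was kept in 4 of 12 fits that left out an animal (not without anti-IL-15 animals 4, 5 or 6 or IgG1 animals 1, 2, 3, 5 or 6, with differences of 0.24 to 0.33). PFKL was next in order of p, at 4.98, 5.96 and 6.67 in CD8 TCM, against 5.43, 6.35 and 6.92 in CD4 TCM (-0.38 ± 0.18, adjusted p 0.0971).

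The remaining members did not pass between CD8 and CD4 TCM before treatment. SLC2A3 differed by 0.04 ± 0.13, LDHA by -0.23 ± 0.11 (0.17 ± 0.11 by its dimmer probe) and PDK1 by 0.14 ± 0.13. The median difference of the 25 members was -0.06 with 10 above 0, beside 0.01 over all genes.

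**Figure D4:**
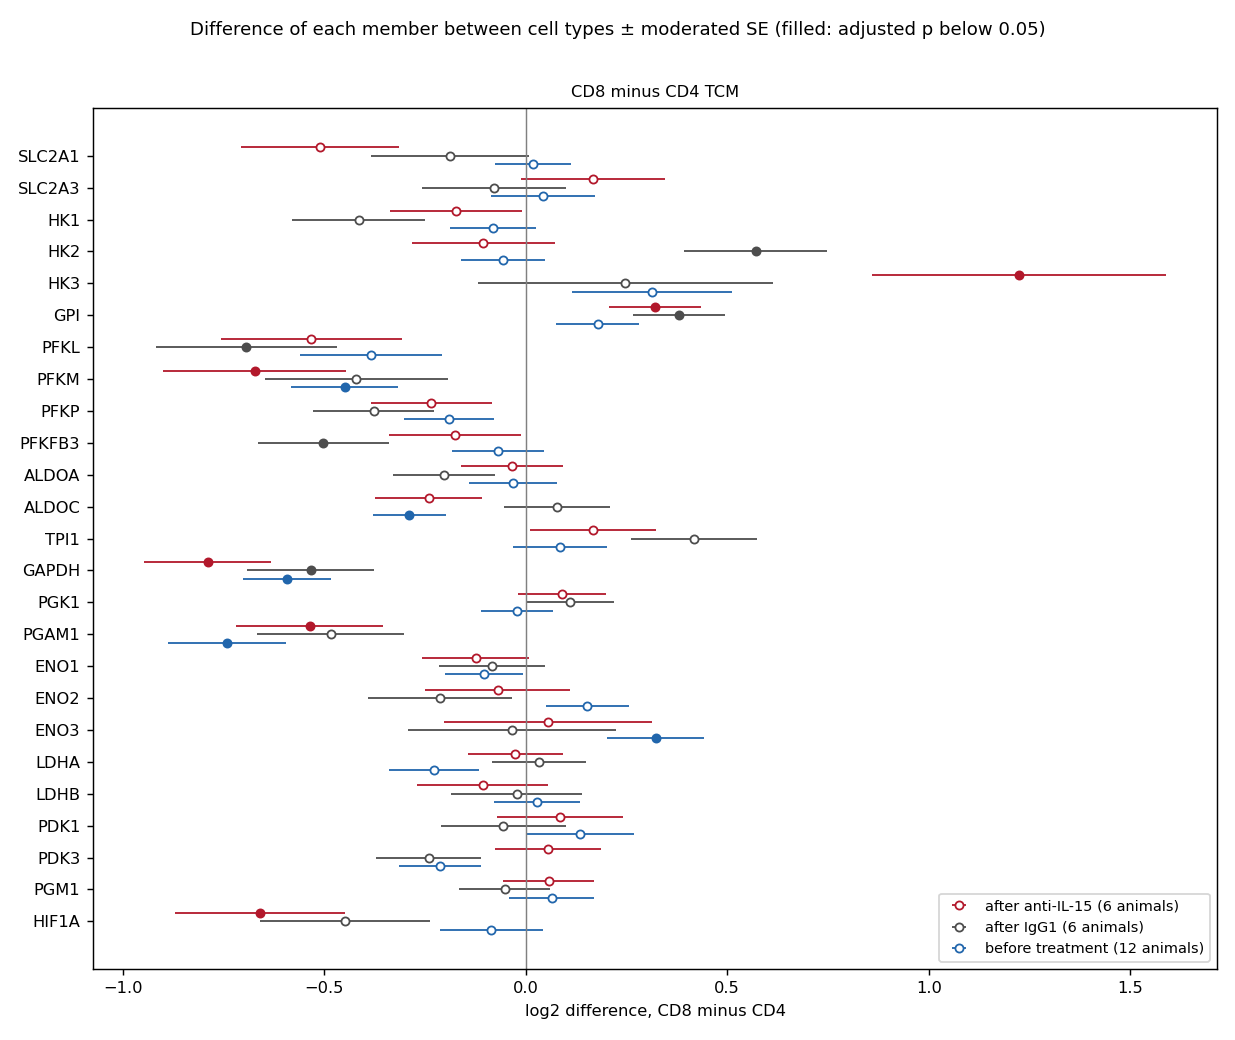
Difference of each member between the cell types (log2, CD8 minus CD4 TCM) with its moderated SE, after anti-IL-15, after IgG1 and before treatment; filled points have an adjusted p below 0.05. GAPDH is below 0 and filled in all 3 comparisons (-0.79, -0.53 and -0.59), and GPI is above 0 and filled in both comparisons after treatment (0.32 and 0.38).

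After anti-IL-15, 6 of 25 members (24%) were called between CD8 and CD4 TCM, against 24.6% of all genes, and after IgG1 5 (20%), against 30.2%. One of the 6 was HK3, which had entered the list through detection in CD8 TCM alone, so that a higher CD8 level was favoured by how it was kept, and without it 5 of 24 members were called. Apart from HK3, GPI was the one member that differed in the same direction in all 6 anti-IL-15 animals, against 20.6% of all genes, and 8 members, HK3 included, did so in all 6 IgG1 animals, against 30.9%. GPI, the phosphoglucose isomerase, was higher in CD8 TCM in all 12 animals after treatment. It stood at 7.94, 8.24 and 8.51 in CD8 TCM after anti-IL-15, against 7.73, 7.85 and 8.23 in CD4 TCM (0.32 ± 0.11, adjusted p 0.0482), a call kept in 1 of 12 fits without an animal, the one without anti-IL-15 animal 6 (0.24 to 0.37 over the others). After IgG1 it stood at 8.20, 8.26 and 8.44 in CD8 TCM, against 7.75, 7.85 and 8.07 in CD4 TCM, with no overlap (0.38 ± 0.11, adjusted p 0.0182).

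PFKM (-0.67 ± 0.23, adjusted p 0.0385) and PGAM1 (-0.54 ± 0.18, adjusted p 0.0398) were again called lower in CD8 TCM after anti-IL-15. PFKM had 5.84, 6.92 and 7.74 in CD8 TCM, against 6.73, 7.52 and 8.10 in CD4 TCM, and PGAM1 6.25, 6.84 and 7.54 in CD8 TCM, against 7.00, 7.33 and 7.85 in CD4 TCM. The PFKM call was lost without anti-IL-15 animal 1, 2, 4 or 5 (-0.46 without animal 4, adjusted p 0.150), and that of PGAM1 without animal 1, 2, 5 or 6 (-0.35 without animal 2, adjusted p 0.175). HIF1A was called lower in CD8 TCM after anti-IL-15, at 4.53, 4.86 and 5.18, against 4.83, 5.32 and 6.92 in CD4 TCM (-0.66 ± 0.21, adjusted p 0.0298). It was detected there in 1 of 6 CD8 samples and 3 of 6 CD4 samples, so the size of that difference rests on values near background. Leaving out animal 1, 2 or 3 of the anti-IL-15 animals ended this call, with a HIF1A difference of -0.44 in the fit lacking animal 3 (adjusted p 0.119). After IgG1 no CD8 sample and 4 of 6 CD4 samples detected HIF1A, so CD8 TCM had only an upper bound, of 5.10. The CD4 mean of 5.25, which takes in undetected samples too, lay 1.10-fold above that bound, without a call.

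After IgG1, HK2 was higher in CD8 TCM in 6 of 6 animals, at 5.33, 5.66 and 5.90, against 4.79, 5.16 and 5.43 in CD4 TCM (0.57 ± 0.18, adjusted p 0.0218), but a dimmer HK2 probe gave 0.05 ± 0.14 (adjusted p 0.826). PFKL was lower in 6 of 6 animals, at 5.08, 5.84 and 6.10 in CD8 TCM, against 5.98, 6.31 and 6.87 in CD4 TCM (-0.69 ± 0.23, adjusted p 0.0272), but its dimmer probe gave -0.10 ± 0.14 (adjusted p 0.638). PFKFB3 was lower in 6 of 6, at 7.78, 8.17 and 8.92 in CD8 TCM, against 7.84, 8.80 and 9.58 in CD4 TCM (-0.50 ± 0.16, adjusted p 0.0271), but its dimmer probe gave 0.30 ± 0.12, the opposite sign. TPI1, the sixth in order of p, had 8.11, 8.48 and 8.80 in CD8 TCM, against 7.68, 8.05 and 8.34 in CD4 TCM (0.42 ± 0.16, adjusted p 0.0532), against 0.11 ± 0.15 by its dimmer probe. Each of the 3 calls was lost in 3 fits that left out an IgG1 animal, HK2 without animal 2, 3 or 4 (0.46 to 0.56), PFKL without animal 2, 3 or 4 (-0.68 to -0.57) and PFKFB3 without animal 1, 4 or 5 (-0.47 to -0.44).

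HK3, with detection in 6 of 24 CD8 samples and none of the CD4 samples, was kept only through the cell type in which it was brighter, so its values between the cell types are a description. After anti-IL-15 it was higher in CD8 TCM in 6 of 6 animals (adjusted p 0.0213 in the fit). Its levels were 4.55, 4.96 and 8.09 in CD8 TCM, against 4.38, 4.54 and 4.67 in CD4 TCM. It was detected in 3 of 6 CD8 samples and in none of the CD4 samples, where it has only an upper bound, of 5.04. The CD8 mean of 5.76 lay 1.64-fold above that bound, but the CD8 median of 4.96 lay below it. That mean takes in undetected samples and rested on animals 5 and 6, at 7.35 and 8.09. The fitted difference was 0.24 (adjusted p 0.336) over animals 1 to 4 of each antibody, a setting chosen after the values were seen. It was 0.73 without anti-IL-15 animal 6 (adjusted p 0.0680) and 0.93 without animal 5 (adjusted p 0.0879). HK3 and the monocyte markers were high in the same CD8 samples. The monocyte and dendritic cell list held 10 genes, all with a probe, and their summed linear level was 1076 to 5468 (median 2409) in the 6 CD8 samples that detected HK3 and 316 to 1247 (median 375) in the 18 that did not. LYZ, lysozyme, ran from 7.11 to 11.08 in those 6 and from 4.40 to 8.63 in those 18, CD14 from 7.28 to 10.48 and from 6.15 to 8.57, and S100A9 from 7.11 to 9.04 and from 4.40 to 6.45. S100A8, another defining marker, was detected in no sample.

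**Figure D5:**
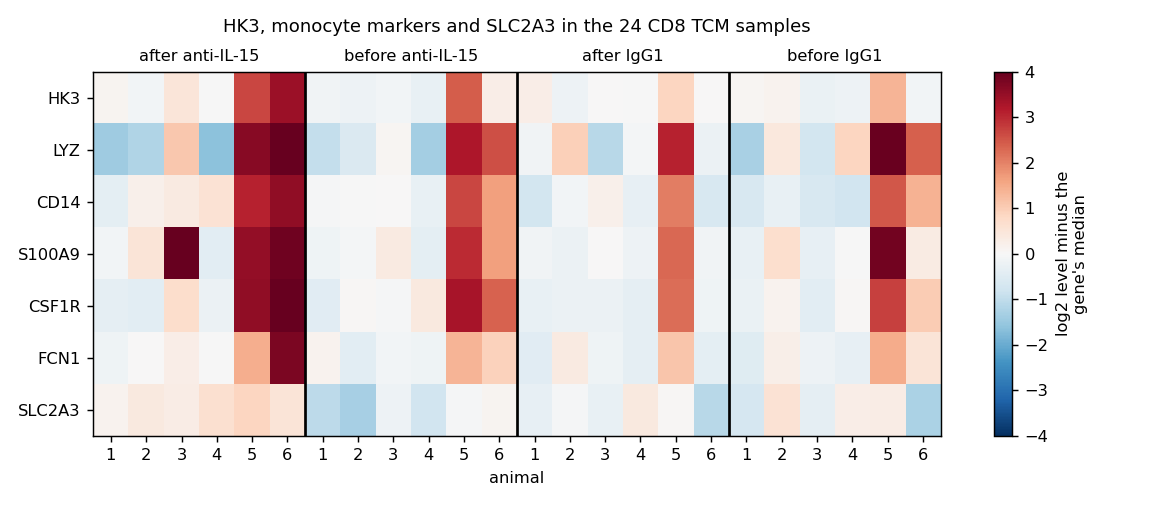
HK3, the monocyte genes LYZ, CD14, S100A9, CSF1R and FCN1, and SLC2A3 in the 24 CD8 samples, each as the log2 level minus the gene's median over those samples (colours are limited to 4 either way). The 6 samples that detected HK3 are high in the monocyte genes, S100A9 lying at 7.11 to 9.04 in them and at 4.40 to 6.45 in the other 18.

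By group, the summed monocyte level was 324 to 5468 in CD8 TCM after anti-IL-15, against 337 to 2198 before, and 333 to 1593 after IgG1, against 316 to 2620 before. In CD4 TCM it lay between 302 and 510 throughout. In CD8 TCM after anti-IL-15, S100A9 changed by 1.21 ± 0.39 (adjusted p 0.332), CD14 by 0.57 ± 0.30 and LYZ by 0.41 ± 0.40. SLC2A3, whose transporter monocytes carry too, ran from 7.94 to 8.86 in the CD8 samples that detected HK3 and from 6.68 to 8.65 in the others. In anti-IL-15 animals 1, 2 and 4, the summed monocyte level was 324, 385 and 406 after treatment, against 347.1, 380.5 and 337.2 before. Their SLC2A3 change was 1.19, 1.70 and 1.43. In animals 3, 5 and 6 the sums were 1076, 2766 and 5468 after, against 435.2, 2198 and 1247 before. Their SLC2A3 change was 0.51, 0.92 and 0.43. Over animals 1 to 4 of each antibody, a choice made after the values were seen that drops the rises of 0.92 and 0.43, the SLC2A3 change was 1.21 with an adjusted p of 0.0592. The part of monocyte RNA in the values of SLC2A3 and HK3 was not tested. The summed level of the erythroid genes, of which 6 of 7 had a probe, varied far more, from 283 to 27430 in CD8 and from 533 to 23550 in CD4 samples. It was higher in 2 of 6 anti-IL-15 animals after treatment in CD8 TCM, and its part in the members' levels was not tested. The summed level of the B cell genes was 314 to 709 in CD8 and 161 to 288 in CD4 samples, with no overlap. That of the NK cell genes was 232 to 926 in CD8 and 175 to 365 in CD4 samples. The part of either in the differences between the cell types was not tested.

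Before treatment the antibody groups, which hold different animals, were compared as a check of the start. In CD8 TCM, 0 of 25 members and 0% of all genes were called. ALDOA, the main aldolase, was at 9.49, 9.83 and 10.07 in the later anti-IL-15 animals, against 9.84, 10.23 and 10.74 in the IgG1 animals (-0.42 ± 0.16, adjusted p 0.722), and PFKP at 6.61, 6.93 and 7.61, against 5.30, 6.46 and 6.95 (0.61 ± 0.26, adjusted p 0.749). Those 2 members had an unadjusted p below 0.05, against 6.4% of all genes. HK1 (-0.21 ± 0.13), PGAM1 (-0.45 ± 0.28), PFKL (0.32 ± 0.21) and PFKFB3 (-0.23 ± 0.16) came next.

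In CD4 TCM, 0 of 24 members and 0% of all genes were called between the antibody groups before treatment, and 5 members (20.8%) had an unadjusted p below 0.05, against 11.5% of all genes. PFKM was at 7.33, 7.62 and 8.06 in the later anti-IL-15 animals, against 6.58, 7.15 and 7.28 in the IgG1 animals, with no overlap (0.63 ± 0.16, adjusted p 0.219). PFKP was at 6.61, 7.48 and 7.67, against 5.06, 6.57 and 7.27 (0.91 ± 0.30), and HIF1A at 4.60, 4.87 and 5.33, against 5.04, 5.31 and 5.76 (-0.47 ± 0.16). The lower start of HIF1A in the anti-IL-15 animals stands beside its change in them. PFKL (-0.50 ± 0.22), PGAM1 (-0.46 ± 0.20) and ENO3 (0.39 ± 0.20) followed.

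The genes around the pathway, in 6 lists, gave 0 calls after either antibody in either cell type. Of all genes, 0.174% in CD8 and 0.0336% in CD4 TCM were called after anti-IL-15, and 0% in each after IgG1. In CD8 TCM after anti-IL-15, PYGL, glycogen phosphorylase, changed by -0.44 ± 0.16 (adjusted p 0.418), PDHX, a structural part of the pyruvate dehydrogenase complex, by 0.40 ± 0.17 (adjusted p 0.485), RHEB, which activates mTORC1, by 0.32 ± 0.14 (adjusted p 0.507) and SLC2A11, a further sugar transporter, by -0.61 ± 0.29. PYGL also changed by -0.53 ± 0.16 in CD8 TCM after IgG1. EPAS1, which encodes the HIF-2 counterpart of HIF1A, changed by -0.56 ± 0.20 after IgG1 in CD8 TCM, and the antibodies differed by 0.89 ± 0.29 (unadjusted p 0.00674, adjusted p 0.606). No member of the HIF-1 list outside glycolysis had an unadjusted p below 0.05 after anti-IL-15, of 8 tested in CD8 and 10 in CD4 TCM. The shares of all genes were 9.44% in CD8 and 5.69% in CD4 TCM. With so few genes tested, a count of 0 does not set the list apart from them.

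Between CD8 and CD4 TCM before treatment these lists held calls in both directions. Of the 6 pentose phosphate genes tested, 4 were called: RPIA (0.49 ± 0.08) and the transketolase TKT (0.51 ± 0.11) were higher in CD8 TCM, and RPE (-0.46 ± 0.09) and the phosphogluconate dehydrogenase PGD (-0.47 ± 0.13) lower. Of 7 genes of pyruvate entry to the mitochondrion, PDHA1 was higher (0.56 ± 0.10) and PDHX (-0.66 ± 0.10) and DLD (-0.53 ± 0.14) lower. Among 15 regulators, 4 were higher and 4 lower, the lowest p being those of FOXO1, a transcription factor of quiescence (-0.62 ± 0.09), and TXNIP, which restrains glucose uptake (-0.44 ± 0.08). Of 15 other transporters and isoenzymes, 1 was higher and 6 lower, among them the sugar transporter SLC2A10 (-0.82 ± 0.15). Of 10 HIF-1 genes, 1 was higher and 3 lower, with EPAS1 at -0.63 ± 0.11, and of 6 glycogen genes PYGL was lower (-0.36 ± 0.10). The shares stand beside 36.1% for all genes.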

How the data were processed

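Total RNA was amplified and hybridised to Illumina human BeadChips of 47230 probes, per the labels. The authors' deposited non-normalized table holds bead intensity and, per the file headers, a detection p-value for each probe. The authors' value table holds log2 values without background correction: quantile normalization of the intensities gave the same log2 value, within 0.001, for 99.9% of them. The submitters' processing notes name limma. Gene symbols came from the array annotation (30113 probes with 1 symbol, 8 with several, 17109 with none); no coordinates or sequences were used. Intensities were processed with neqc (offset 16) in limma 3.58.1, R 4.3.3, over 49 arrays, after 49 readings of 0 were set to missing. One sample had 2 arrays, which were averaged, giving 48 samples. A time point misspelt in the labels was read as post-treatment.

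Fits used lmFit and eBayes with the animal, named in the labels, as a fixed block. Same-animal samples correlated at a median r of 0.221 to 0.396 within the groups, so the pairing was kept. The number of arrays limits the precision. No chip or scan date was used.

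The 34 genes, the 6 neighbouring lists and the marker lists were chosen with earlier results of these data known. Every member could be named. Per-group values were given for called members and for the 6 with the lowest p in each comparison, and of the neighbouring lists at most 3 genes per comparison. Code was tested on simulated data. Alternatives covered background correction, filter, variance model, weights, cell count, block and left-out animals. Figures were drawn in Python 3.11.15.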

Additional observations from a re-analysis of the deposited data

Results flagged for a closer look

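Each member's levels were examined for a single sample far from the other 5 of its group. Of 200 groups of 6, 15 (7.5%) had such a sample by Dixon's criterion, which chance alone gives in about 1 in 20. HK3 was high in CD8 TCM before treatment in animal 5 of both antibodies, at 7.09 (anti-IL-15; nearest 4.92) and 6.02 (IgG1; nearest 4.79), samples that also had a high summed monocyte level. HK2 was high in CD8 TCM after anti-IL-15 in animal 3 (5.96, nearest 5.04), where the other 5 samples did not detect it.

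In CD8 TCM before anti-IL-15, PFKM was low in animal 1 (5.96) and PGAM1 in animal 5 (5.45). In CD8 TCM before IgG1, PFKM was high in animal 5 (7.16), PFKP low in animal 4 (5.3) and PDK1 low in animal 6 (8.54). In CD4 TCM of the anti-IL-15 animals, ENO1 was low in animal 6 after and before treatment (10.6 and 10.66), LDHB was high in animal 3 after treatment (7.09), in a sample that stood apart, and PFKP was low in animal 4 before (6.61). In CD4 TCM of the IgG1 animals, PGM1 was low in animal 5 after treatment (6.68), and ENO2 (9.05) and LDHB (5.91) were low in animal 2 before.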

How the results depend on the processing

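Of 657 values of 27 member differences under other settings, 554 kept their direction and side of the threshold. In CD8 TCM after anti-IL-15, where 1 member was called, 2 were called in the deposited table, with normexp at offset 50, without background correction and with a variance trend. None (0) was called without a filter on dim probes, with array weights, without the replicate block, with it as a random effect, or over animals 1 to 4; leaving out 1 animal gave 0 to 1. For SLC2A3 the adjusted p was 0.0945 without the filter, 0.0560 with array weights and 0.186 with the random block. Between CD8 and CD4 TCM before treatment, where 5 were called, 0 were called with the sorted cell count and 3 without the replicate block (4 to 7 without 1 animal). After anti-IL-15 the 6 became 2 without the filter, 0 with cell count, 1 without the block and 3 over animals 1 to 4 (2 to 5 without 1 animal). After IgG1 the 5 became 8 in the deposited table, with normexp, without background correction or with the trend, 9 with array weights or at an adjusted p below 0.1, 2 without the filter or over animals 1 to 4, 0 with cell count and 3 without the block (2 to 9 without 1 animal). With the cell count in the fit 6 differences reversed: PDK1 in CD4 TCM after anti-IL-15 (-0.068), and between the cell types GAPDH (0.16) and PFKM (0.90) before treatment, HIF1A after anti-IL-15 (0.58), and GAPDH (0.0077) and HK2 (-0.19) after IgG1. Cell number and cell type do not overlap, so the fits between the cell types extrapolate. The PDK1 fit lay within CD4 TCM, where the sorts yielded 197000 to 534000 cells after anti-IL-15 and 411000 to 958000 before. The yield was lower after treatment in 6 of 6 anti-IL-15 animals and in 4 of 6 IgG1 animals. The part of cell number in these differences was not tested otherwise. Signal near background limits HK3, HIF1A and HK2. The settings of animals 1 to 4 were chosen after seeing the data. The share of all genes called under each other setting is not given beside these counts of members. The counts therefore do not show whether the members moved apart from the array. In the main fits between the cell types, 36.1% of all genes were called before treatment, 24.6% after anti-IL-15 and 30.2% after IgG1.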
